A study of Mus musculus with 30 samples.

Results

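The small leucine-rich proteoglycans described here are 10 genes, Dcn, Bgn, Aspn, Fmod, Lum, Prelp, Omd, Epyc, Ogn and Chad. They were chosen by symbol among 55416 gene IDs and each symbol matched 1 ID. Bulk RNA sequencing was performed on fracture calluses of 30 mice, dissected at 3, 6, 10 and 14 days post fracture (dpf) after a closed, non-stabilized fracture of the left tibia. At 3-dpf there were 4 WT and 4 P-Apex1KO mice, at 6-dpf 5 and 3, at 10-dpf 4 and 3, and at 14-dpf 4 and 3. P-Apex1KO mice are Prrx1-Cre+;Apex1 C/C, where C is the floxed Apex1 allele. The WT littermates, per the study's methods, could be Prrx1-Cre+/-;Apex1 C/+, Apex1 C/C or Apex1 C/+, so some may carry Cre, and the labels do not say which mouse is which. Both sexes were used, with females and males in every group but P-Apex1KO at 14-dpf, which held 3 females and 0 males. Per the study's methods, mice were fractured at 7 to 12 weeks of age. Prrx1-Cre recombines in limb mesenchyme from the embryo on, so blood, endothelial and muscle fibre RNA in the callus comes from cells that were not targeted. The comparison addresses how loss of Apex1, a DNA repair enzyme and redox factor, in limb mesenchyme changes the callus during healing.

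Small leucine-rich proteoglycans are secreted proteins with a curved leucine-rich repeat domain that binds collagen and controls how fibrils form, space and fuse. Decorin, biglycan and asporin also bind growth factors of the TGF-beta and BMP families, and biglycan can act on innate immune receptors when released from matrix. Decorin and biglycan carry chondroitin or dermatan sulfate chains, fibromodulin, lumican and osteomodulin carry keratan sulfate, and chondroadherin carries no such chain. In the callus, cartilage is laid down first and bone replaces it, and family members are known for different tissues: epiphycan and chondroadherin for cartilage, osteomodulin for bone, fibromodulin for tendon and cartilage, and decorin and lumican for fibrous tissue.

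Counts on genes ran from 18334389 to 43111491 per library. Epyc had the lowest counts of the family, and its counting error is largest in the libraries at or below 1 CPM. CPM (counts scaled per library to a common total) are scaled by library size and TMM factors within a time point. Apex1 itself stood at 31.8, 28.5, 36.1 and 33.9 CPM in WT and at 19.8, 30.9, 29.6 and 37.1 CPM in the libraries labelled P-Apex1KO at 3-dpf, which overlap (log2 fold change -0.15, SE 0.186, edgeR adjusted p = 0.927). It was lower in P-Apex1KO at 6-dpf (log2 fold change -0.67, SE 0.113, edgeR adjusted p = 0.0071) and 10-dpf (-0.65, SE 0.128, edgeR adjusted p = 0.0278). At 14-dpf Apex1 ran from 19.4 to 26.6 CPM in WT and from 14.3 to 18.7 CPM in P-Apex1KO, without overlap, and the model with sex gave -0.29 (SE 0.189, edgeR adjusted p = 0.367). Cartilage, bone, tendon, fibroblast, muscle, leukocyte, endothelial and fat markers were read as a check of the tissue, and none was at 0 counts in every mouse of a group. In bulk tissue, fewer cells of a type and less RNA per cell cannot be told apart.

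Biglycan was the leading family transcript of the callus in every group. Scaled to merged exon length (CPM per kilobase, with TMM factors over all 30 libraries), Bgn made up 41.2% ± 2.37 (SD, n = 4) of the summed level of the 10 genes in WT at 3-dpf, 31.8% ± 1.77 (n = 5) at 6-dpf, 33.8% ± 5.77 (n = 4) at 10-dpf and 37.6% ± 2.19 (n = 4) at 14-dpf. In P-Apex1KO its share was 46.1% ± 4.36 (n = 4), 32.3% ± 2.12 (n = 3), 29.2% ± 2.08 (n = 3) and 29.0% ± 2.41 (n = 3). By merged exon length, asporin, an aspartate-rich member, fibromodulin and lumican were the other leading members at 6-, 10- and 14-dpf. Their order changed with time. In WT at 3-dpf the order was Bgn, Aspn, Lum, Dcn, Fmod, Ogn, Prelp, Omd, Chad and Epyc, and Dcn, Fmod and Ogn overlapped between mice, as did Omd and Chad. At 14-dpf in WT, Lum was second at 18.8% ± 0.414, while Aspn, Fmod and Dcn overlapped. Epyc was last in every group, between 0.0823% ± 0.0551 (libraries labelled P-Apex1KO, 3-dpf) and 0.983% ± 0.342 (P-Apex1KO, 10-dpf).

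The shares of Chad, Omd, Fmod and Prelp were larger at some later times than at 3-dpf. Prelp went in WT from 2.21% at 3-dpf to 3.68% ± 0.622 at 6-dpf, and stood at 1.06% at 14-dpf. Chad went from 0.526% ± 0.175 of the summed level at 3-dpf in WT to 4.51% ± 0.679 at 6-dpf and 10.7% ± 2.33 at 10-dpf, then stood at 4.91% ± 1.56 at 14-dpf. In P-Apex1KO it was 0.748% ± 0.444, 1.13% ± 0.645, 5.24% ± 1.49 and 8.24% ± 2.0, so the group mean was highest at 14-dpf and not at 10-dpf. Omd was 0.768% ± 0.133 in WT at 3-dpf and 5.74% ± 0.831 at 14-dpf. Fmod was 7.79% ± 0.959 of the WT level at 3-dpf and 21.9% ± 1.83 at 6-dpf, where its mice overlapped with those of Bgn in CPM per kilobase. The summed level of the family was 590 CPM per kilobase ± 66.4 in WT at 3-dpf, 1870 ± 340 at 6-dpf, 1410 ± 474 at 10-dpf and 977 ± 62.1 at 14-dpf. In P-Apex1KO it was 524 ± 138, 1250 ± 305, 1590 ± 405 and 1050 ± 331. The naming scheme of the libraries changes between 6- and 10-dpf, and steps in shares or levels across these times were not tested. Shares depend on the length used: with the longest transcript as the length, Bgn made up 54.5% of the WT level at 3-dpf and stayed first in every group.

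**Figure D1:**
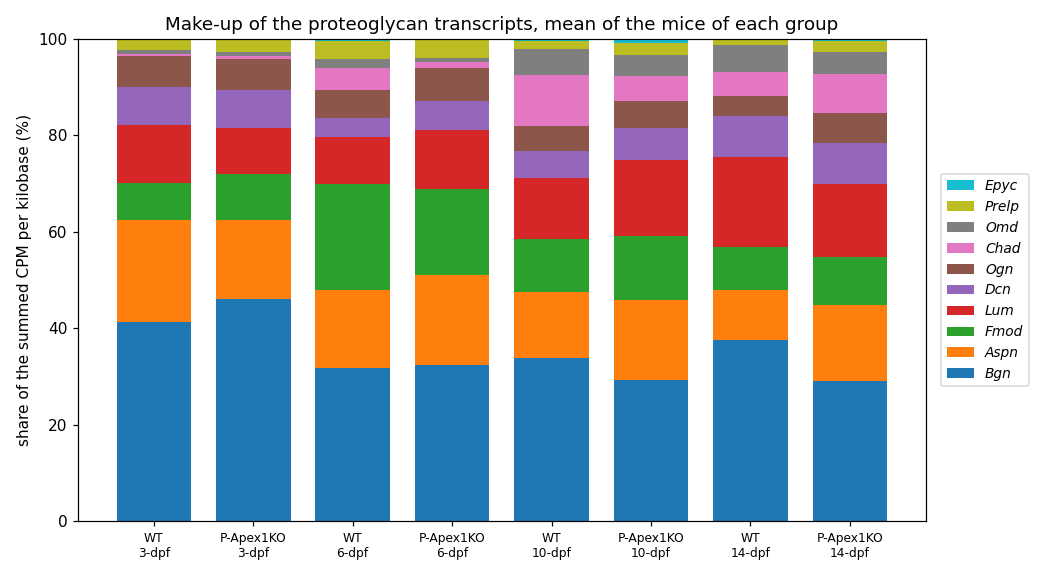
Stacked bars give the mean share of each gene in the summed CPM per kilobase of the 10 genes (y axis, percent) for each genotype and time point (x axis). Bgn is the largest block in all 8 groups, and the Chad block is 10.7% in WT and 5.24% in P-Apex1KO at 10-dpf.

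The sequence upstream of the gene is shown for the members whose level differed most between genotypes or that led the family. A RefSeq window (table of build GRCm38.p6) was found for 8 of the 10 genes, not for Dcn and Lum. The 250 bases before the RefSeq start were placed on GRCm39 by exact match. Shown are Epyc, Omd and Prelp, which differed between genotypes at 6-dpf or 14-dpf, and Bgn, the leading transcript. The Chad window is not printed because 177 of its bases lie in an annotated exon, and of the 2 Epyc windows the one that lies wholly in annotated exon is not printed. Capitals mark matches on either strand to the TATA box (TATAAA), the SOX core (AACAAT), the RUNX core (ACCACA) and the GC box (GGGCGG), motifs chosen with the expression results known.
Epyc, chr10:97482715-97482964, plus strand: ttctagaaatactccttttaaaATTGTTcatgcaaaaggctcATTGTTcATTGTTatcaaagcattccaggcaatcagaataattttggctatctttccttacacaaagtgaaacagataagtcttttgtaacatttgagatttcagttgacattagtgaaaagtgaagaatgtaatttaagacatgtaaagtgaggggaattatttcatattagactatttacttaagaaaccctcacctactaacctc
Omd, chr13:49735688-49735937, plus strand: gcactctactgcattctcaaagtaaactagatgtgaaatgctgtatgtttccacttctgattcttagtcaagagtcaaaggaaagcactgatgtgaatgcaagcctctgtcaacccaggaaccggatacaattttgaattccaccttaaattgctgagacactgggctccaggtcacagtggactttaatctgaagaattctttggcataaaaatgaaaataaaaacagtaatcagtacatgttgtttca
Prelp, chr1:133849140-133849389, minus strand: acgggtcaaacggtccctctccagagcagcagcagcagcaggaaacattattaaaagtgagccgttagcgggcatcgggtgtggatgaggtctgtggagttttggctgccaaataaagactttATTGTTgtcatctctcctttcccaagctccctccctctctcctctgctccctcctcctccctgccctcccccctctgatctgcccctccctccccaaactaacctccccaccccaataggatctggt
Bgn, chrX:72526957-72527206, plus strand: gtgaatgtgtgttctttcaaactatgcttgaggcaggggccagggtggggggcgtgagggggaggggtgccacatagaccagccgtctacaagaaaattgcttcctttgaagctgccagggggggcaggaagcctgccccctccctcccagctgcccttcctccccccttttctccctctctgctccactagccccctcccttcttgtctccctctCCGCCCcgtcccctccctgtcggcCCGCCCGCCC
The Epyc window held the SOX core 3 times, at -228, -208 and -201 from the start and each on the reverse strand, and the Prelp window held it once, at -127. The Omd window held none of these motifs. The Bgn window held the GC box at -34, -10 and -6. Of the windows not printed, that of Aspn held the SOX core at -222, and the other Epyc window held it at -236 and -139. Aspn was not called between genotypes at any time in the model with genotype and sex. The windows of Chad, Fmod and Ogn held no SOX core. Of 32851 windows in the table, 9.42% held the SOX core, 12.4% the TATA box, 14.0% the RUNX core and 32.7% the GC box. A match describes letters only, and no binding was measured here.

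All 10 members rose from 3- to 6-dpf in both genotypes. In WT 10 of 10 passed the test as higher, beside 15.4% of the 20468 genes tested, and in P-Apex1KO 10 of 10, beside 7.1%. The median log2 change of the members was 1.91 in WT and 1.53 in P-Apex1KO, beside -0.03 and 0.01 over all genes. The largest WT rises were those of the cartilage members. Chad rose 26.8-fold (log2 change 4.74, SE 0.516, edgeR adjusted p = 1.92e-05) and Epyc 12.3-fold (3.62, SE 0.458, edgeR adjusted p = 5.64e-05). Fmod, which organises collagen fibrils in tendon and cartilage, rose 8.78-fold (3.13, SE 0.316, edgeR adjusted p = 7.12e-06), and Omd, a bone matrix member, 7.08-fold (2.82, SE 0.252, edgeR adjusted p = 2.46e-06). Dcn rose least in WT, 1.48-fold (0.57, SE 0.179, edgeR adjusted p = 0.0249). The Dcn call was lost without WT replicate 2 or 3 at 3-dpf (edgeR adjusted p = 0.0976 and 0.096). It was also lost with no filter on low counts (edgeR adjusted p = 0.0754) and with library size alone (0.33, edgeR adjusted p = 0.114).

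In P-Apex1KO Epyc rose most, 6.99-fold (log2 change 2.805, SE 0.501, edgeR adjusted p = 0.00284), then Fmod, 4.52-fold, and Prelp, 3.47-fold. The rise of Chad was 3.38-fold (1.76, SE 0.496, edgeR adjusted p = 0.0322) and that of Omd 2.75-fold (1.46, SE 0.264, edgeR adjusted p = 0.00293). The Chad call was lost without P-Apex1KO replicate 1, 2 or 4 at 3-dpf or replicate 1 or 2 at 6-dpf, with edgeR adjusted p between 0.0571 and 0.154, and with no filter on low counts (edgeR adjusted p = 0.0895). The Bgn call (0.76, edgeR adjusted p = 0.0267) was lost without any of the same mice, with edgeR adjusted p between 0.0524 and 0.17, and with no filter (edgeR adjusted p = 0.0769). Lum, a keratan sulfate proteoglycan of fibrous tissue, rose 3.03-fold in P-Apex1KO and 2.49-fold in WT. Aspn rose 2.68-fold in P-Apex1KO and 2.33-fold in WT. The test of the difference between the genotypes' changes called 0 of 10 members with edgeR, beside 1.3% of all genes in either direction, and 2 with DESeq2. DESeq2 also called more genes in all, 718 against 267 in edgeR. At an unadjusted p under 0.05 the edgeR test held 2556 genes, 3 members among them. Chad came closest (difference of the log2 changes -2.99, SE 0.688, edgeR adjusted p = 0.0554), then Omd (-1.36, SE 0.356, edgeR adjusted p = 0.089). Chad and Omd are the members that DESeq2 called. For Epyc the difference was -0.81 (SE 0.652, edgeR adjusted p = 0.699).

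**Figure D2:**
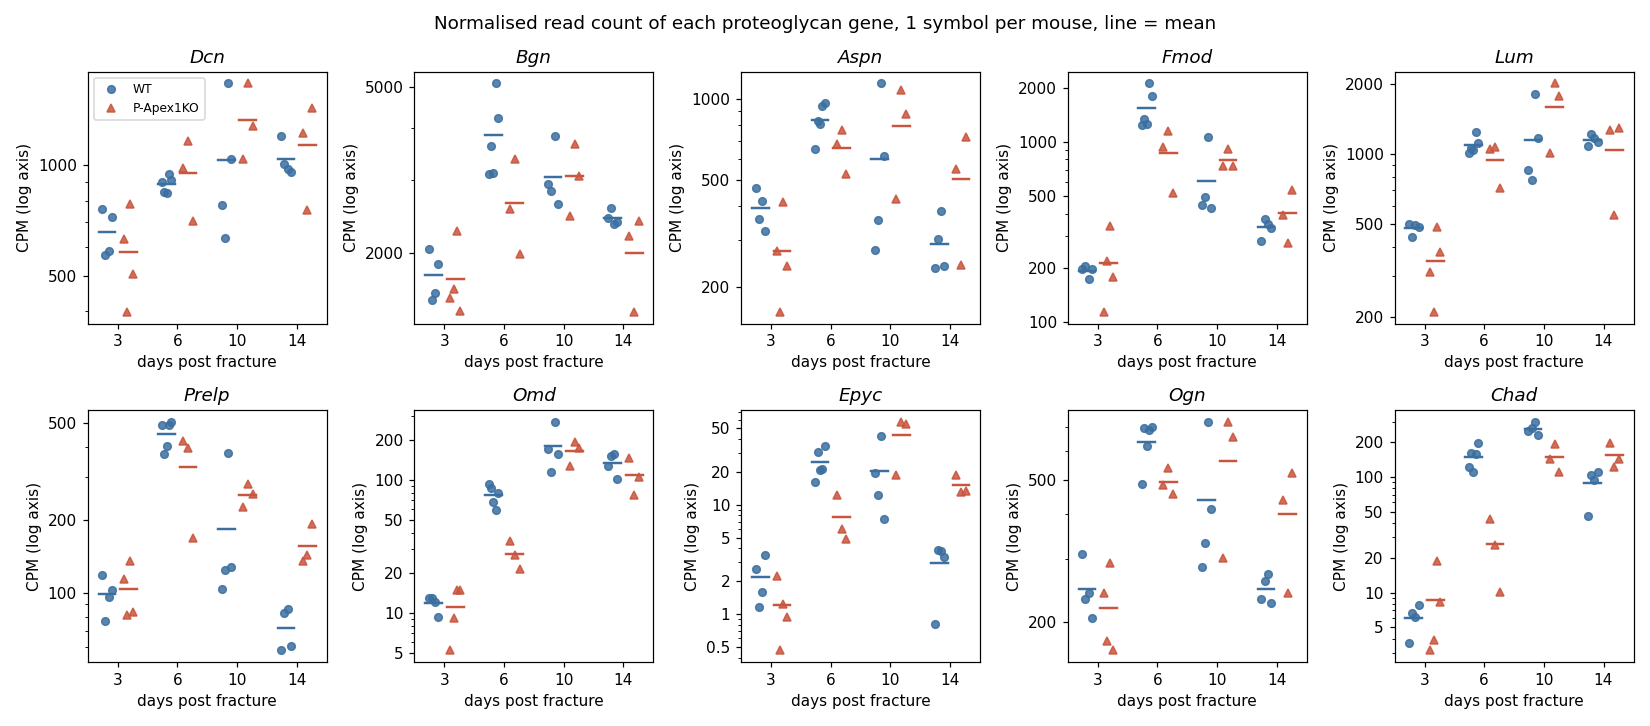
Each panel gives 1 gene, with CPM on a log axis against days post fracture, 1 symbol per mouse (circles WT, triangles P-Apex1KO) and a line at the group mean. CPM are scaled within a time point. Epyc and Chad lie lower in P-Apex1KO at 6-dpf and higher at 14-dpf, and 1 WT mouse at 10-dpf lies above the other WT mice in most panels.

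At 3-dpf no member was called between the genotypes. In edgeR 0 of 10 were called, as were 0 of 19866 genes (0.0%), with 1216 genes and 0 members at an unadjusted p under 0.05. DESeq2 called 85 genes and no member. No member separated the 4 WT mice from the 4 mice labelled P-Apex1KO, while the libraries did so for 1.77% of genes as lower and 1.98% as higher. The median log2 fold change of the members was -0.088, beside -0.003 over all genes. Lum was at 503, 439, 498 and 486 CPM in WT and at 312, 209, 486 and 378 CPM in the libraries labelled P-Apex1KO (log2 fold change -0.44, SE 0.214, edgeR adjusted p = 0.837). The labelled mouse with the highest Chad level, 18.9 CPM, was also the highest in chondrocyte markers of the 8 mice. Muscle markers were higher in 12 of 12 genes by estimate, with a median of 0.98, and none was called.

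At 6-dpf the cartilage members Chad and Epyc and the bone member Omd were lower in P-Apex1KO. Chondroadherin, an integrin-binding cartilage protein, was 5.59-fold lower, epiphycan, a cartilage matrix member, 3.14-fold, and osteomodulin 2.69-fold. In all, 3 of 10 members were called lower, beside 5.61% of 20260 genes, and 0 of 10 higher, beside 5.31%. Decorin, lumican, asporin and prelp, by contrast, were not called, with log2 fold changes between -0.41 and 0.10. The members' median was -0.50, beside 0.01 over all genes.

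Chad stood at 122, 162, 110, 156 and 194 CPM in the 5 WT mice and at 43.6, 25.6 and 10.1 CPM in the 3 P-Apex1KO mice. The groups did not overlap, and the lowest WT mouse was above the highest P-Apex1KO mouse. The log2 fold change was -2.48 (SE 0.414, edgeR adjusted p = 0.00884). Epyc stood at 16.1, 30.4, 20.6, 21.3 and 34.1 CPM in WT and at 12.2, 6.04 and 4.83 CPM in P-Apex1KO. Its groups did not overlap either (log2 fold change -1.65, SE 0.333, edgeR adjusted p = 0.0166). The Epyc call was lost without P-Apex1KO replicate 2 (edgeR adjusted p = 0.0508) or replicate 3 (edgeR adjusted p = 0.0883). Omd stood at 93.0, 87.1, 68.6, 58.8 and 79.2 CPM in WT and at 34.4, 27.3 and 21.4 CPM in P-Apex1KO. All WT mice were above all P-Apex1KO mice (log2 fold change -1.43, SE 0.169, edgeR adjusted p = 0.00167), and the Omd call held when any mouse was left out. Fmod stood at 1240, 1340, 1250, 2110 and 1800 CPM in WT and at 938, 1150 and 523 CPM in P-Apex1KO. It also separated the groups and was not called (-0.86, SE 0.283, edgeR adjusted p = 0.0855). In all 4 of 10 members were lower without overlap, beside 10.9% of genes, and 0 higher, beside 9.72%.

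The most abundant member, Bgn, ran from 3100 to 5110 CPM in WT at 6-dpf and from 1990 to 3370 CPM in P-Apex1KO (log2 fold change -0.59, SE 0.226, edgeR adjusted p = 0.128). Ogn (osteoglycin), at 485 to 699 CPM in WT and 457 to 540 CPM in P-Apex1KO, which overlap, had -0.41 (SE 0.141, edgeR adjusted p = 0.0985). DESeq2 called Bgn, Fmod and Ogn too, 6 members in all, and also more genes overall (3290, of which 1641 lower, against 2212 and 1137 in edgeR). Without the filter on low counts 1 member, Omd, was called. Dcn was at 902, 843, 842, 945 and 912 CPM in WT and at 985, 1160 and 705 CPM in P-Apex1KO, which overlap on both sides (0.10, SE 0.164, edgeR adjusted p = 0.76).

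**Figure D3:**
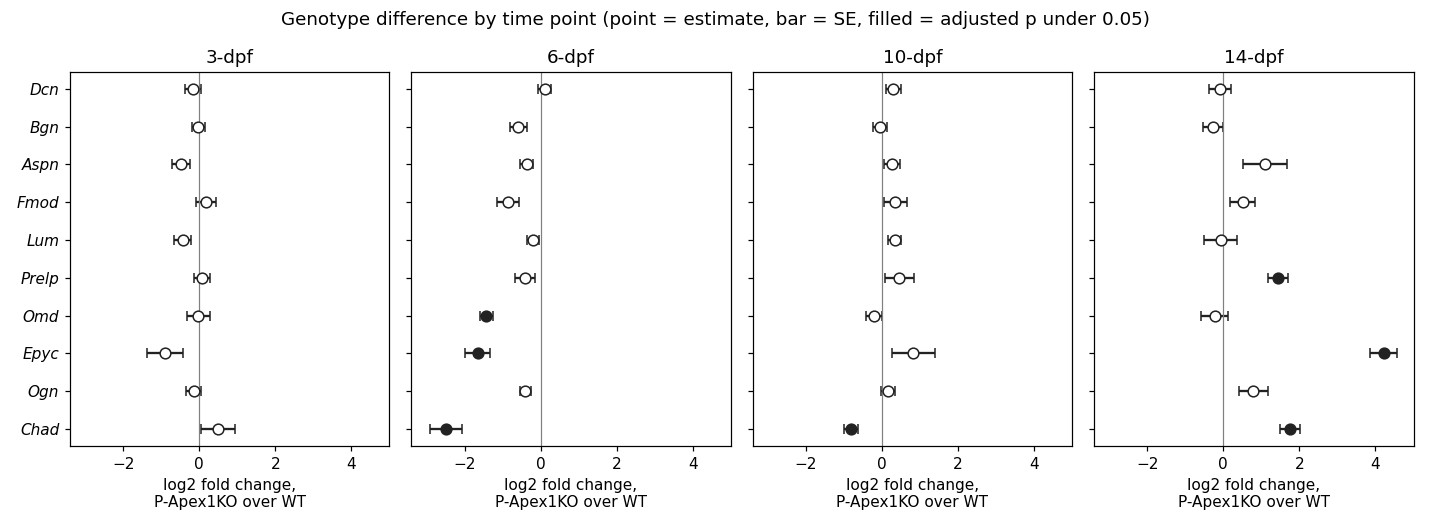
For each time point, points give the log2 fold change of P-Apex1KO over WT (x axis) for the 10 genes (y axis) from the model with genotype and sex, with bars of 1 SE; filled points passed an adjusted p of 0.05. Omd, Epyc and Chad are filled and below 0 at 6-dpf, Chad at 10-dpf, and Prelp, Epyc and Chad are filled and above 0 at 14-dpf.

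Genes that act with these proteoglycans also differed at 6-dpf. Of 18 fibril collagens and fibril-associated collagens, the ligands of the family, 11 were lower and 0 higher (median -0.80), led by Col2a1 (log2 fold change -4.68, SE 0.319, edgeR adjusted p = 0.000271) and Col9a1 (-3.48). Of 25 genes of the glycosaminoglycan linker and of chondroitin and dermatan sulfate synthesis, 12 were lower and 0 higher (median -0.38), led by Xylt1 (-2.13), which starts the chains, and Papss2 (-2.08), which makes the sulfate donor. Of 13 keratan sulfate and tyrosine sulfation genes tested, 1 was lower (Chst1, -0.66) and 0 higher (median 0.04). Of 10 proteases known to cut the family, 0 were lower and 2 higher, Mmp3 (1.89) and Adamts5 (0.75), with a median of -0.16. Of 25 ligands and receptors, 4 were lower, led by Bmp6 (-1.58) and Bmp2 (-0.53), and 6 higher, led by the complement genes C1qa (0.87) and C1qc (0.83), with a median of -0.09. Of 8 other leucine-rich repeat relatives, 2 were lower, Chadl (-1.93) and Podnl1 (-0.63), and 2 higher, Kera (0.72) and Podn (0.64), with a median of -0.21.

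Cell type markers moved with the members at 6-dpf. Of 10 chondrocyte markers 10 were lower (median -2.98), and their summed level ran from 29800 to 52600 CPM in WT and from 2250 to 4600 CPM in P-Apex1KO. Of 5 hypertrophic chondrocyte markers 4 were lower (3420 to 5810 CPM in WT, 642 to 1090 CPM in P-Apex1KO), and of 10 bone markers 7 were lower and 1 higher (36700 to 50200 and 17100 to 27100 CPM). Muscle markers were higher in 11 of 12 (3360 to 6360 and 8230 to 19200 CPM), leukocyte markers in 5 of 10 (579 to 771 and 956 to 1160 CPM), fat markers in 3 of 5 (71.0 to 162 and 110 to 200 CPM) and fibroblast markers in 3 of 9 (878 to 1180 and 977 to 1650 CPM). Tendon markers were split, 1 lower and 1 higher of 6 (390 to 646 and 580 to 942 CPM), and of 6 endothelial markers 0 were called (498 to 682 and 430 to 690 CPM). Their part in the members' differences was not tested. Set against Col2a1 of the same mouse, Chad had a median of 7.02 normalised reads per 1000 of Col2a1 in WT (5.44 to 7.21) and 34.0 in P-Apex1KO (15.4 to 36.8). For Omd the medians were 3.41 and 32.8, for Epyc 1.02 and 8.02, and for Bgn 161 and 3050. For these 4 genes the ranges of the ratios did not overlap between genotypes. Col2a1 was among the markers with the largest falls, and against others the order differs: the log2 fold change of Chad (-2.48) lay below those of Cnmd (-2.43), Comp (-2.04) and Sox9 (-1.83).

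**Figure D4:**
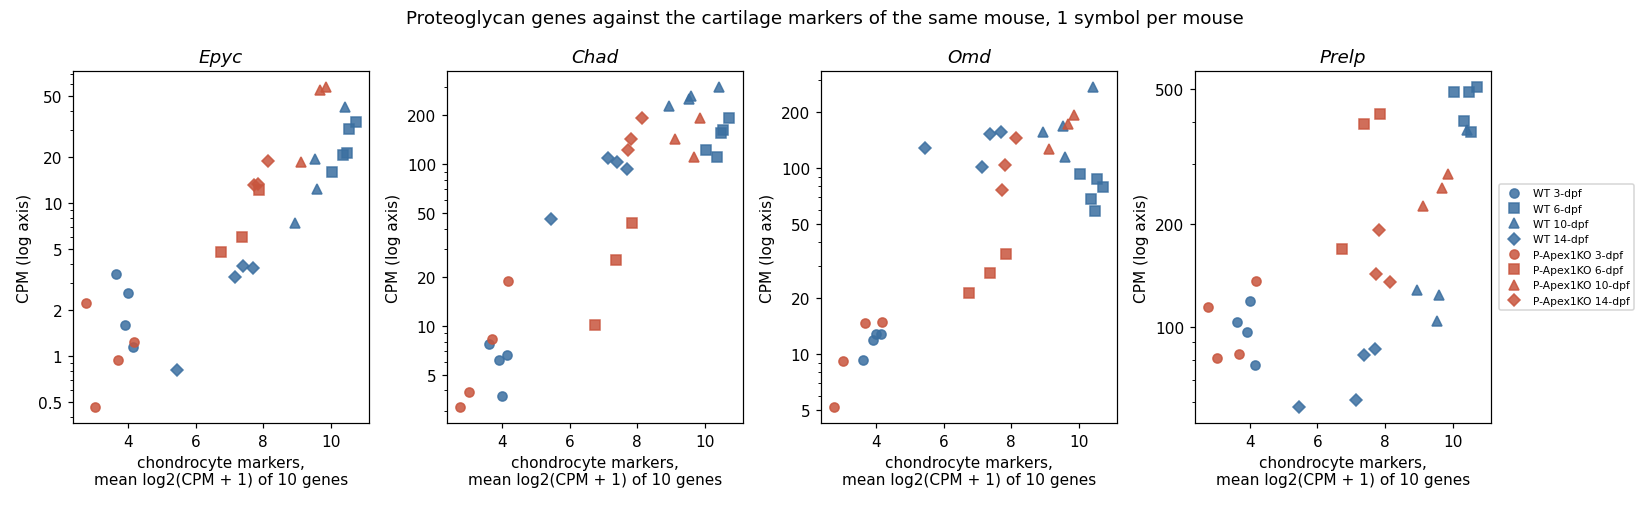
Each symbol is 1 mouse, with the mean log2(CPM + 1) of 10 chondrocyte markers on the x axis and the CPM of 1 gene on a log y axis; colour gives the genotype and shape the time point. The P-Apex1KO mice at 6-dpf lie left of and below the WT mice of that time for Epyc, Chad and Omd, and at 14-dpf 1 WT mouse lies apart at 5.45 on the x axis.

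At 10-dpf 1 member, chondroadherin, was called. Chad stood at 251, 262, 300 and 230 CPM in WT and at 143, 193 and 111 CPM in P-Apex1KO, without overlap. Its log2 fold change was -0.82 (SE 0.192, edgeR adjusted p = 0.0498), which is at the threshold. The call was lost when any mouse but P-Apex1KO replicate 2 was left out, with edgeR adjusted p between 0.0506 and 0.273. So 1 of 10 members was called lower, beside 3.44% of 18910 genes, and 0 higher, beside 3.01%. Of genes at 10-dpf, 10.1% were lower and 9.14% higher without overlap, and of the members 1 and 0. Epyc, by contrast with 6-dpf, was at 19.5, 12.3, 42.6 and 7.41 CPM in WT and at 18.7, 57.6 and 55.0 CPM in P-Apex1KO (0.83, SE 0.57, edgeR adjusted p = 0.434). These groups overlap.

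WT replicate 3 at 10-dpf was the highest WT mouse for 10 of the 10 members. Prelp, a heparin-binding member of basement membranes and cartilage, was at 378 CPM in this mouse and at 104, 124 and 128 CPM in the other WT mice, with 226, 281 and 255 CPM in P-Apex1KO. Fmod was at 1060 CPM in it and at 445, 498 and 431 CPM in the others, with 736, 919 and 739 CPM in P-Apex1KO. Without this mouse, Prelp was higher in P-Apex1KO (log2 fold change 1.02, edgeR adjusted p = 0.00275) and so was Fmod (0.79, edgeR adjusted p = 0.0177), while Chad was not called (-0.72, edgeR adjusted p = 0.0971). Its tendon markers summed to 675 CPM against 142 to 229 CPM in the other WT mice, its fibroblast markers to 1160 against 686 to 808 CPM, and its chondrocyte markers to 43100 against 15900 to 23400 CPM. Their part in its proteoglycan levels was not tested.

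Around the members at 10-dpf, bone markers were lower in 6 of 10 (41400 to 58600 CPM in WT, 17700 to 27100 CPM in P-Apex1KO), and chondrocyte markers in 0 of 10 (15900 to 43100 and 11800 to 20100 CPM). Hypertrophic chondrocyte markers were lower in 2 of 5 (13800 to 17300 and 8130 to 12000 CPM), endothelial in 1 of 6 (666 to 764 and 513 to 598 CPM) and fibroblast in 1 of 9 (686 to 1160 and 760 to 999 CPM). Fat markers were higher in 4 of 5 (46.4 to 60.8 and 87.4 to 139 CPM) and leukocyte markers in 2 of 10 (653 to 778 and 733 to 946 CPM), and of 12 muscle and 6 tendon markers 0 were called. By estimate 12 of 12 muscle markers were higher (median 1.53, 1270 to 4170 and 3770 to 8180 CPM). So were 6 of 6 tendon markers (median 0.38) and 8 of 9 fibroblast markers (median 0.39). Their part in the Chad difference was not tested. Of 18 collagens 1 was lower, Col1a1 (-1.01), and of the chondroitin and dermatan sulfate genes 2 of 25, Ust (-0.87) and Chst15 (-0.40). Lower too were 2 of 13 keratan sulfate genes, Chst2 (-0.75) and St3gal1 (-0.48), and 2 of 7 relatives, Podnl1 (-1.42) and Tsku (-0.50). Of 11 proteases 4 were lower, led by Mmp13 (-1.24) and Mmp14 (-0.71), and 1 was higher, Gzmb (1.39). Ligands and receptors were lower in 5 of 25, led by Bmp2 (-0.95) and Ccn4 (-0.88), and higher in 4, led by C1qa (0.93) and C1qb (0.87).

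From 10- to 14-dpf the cartilage members Epyc and Chad fell most in WT. Of the 10 members 5 were called lower, beside 4.92% of 19705 genes, and their median was -0.94, beside -0.003 over all genes. Epyc was 9.23-fold lower (log2 change -3.21, SE 0.522, edgeR adjusted p = 0.00348), Chad 3.29-fold (-1.72, SE 0.258, edgeR adjusted p = 0.00188) and Prelp 2.72-fold (-1.45, SE 0.302, edgeR adjusted p = 0.0116). Fmod (-0.95, edgeR adjusted p = 0.0368) and Ogn (-0.93, edgeR adjusted p = 0.039) also passed. Both were lost without any of several mice, WT replicate 3 at 10-dpf among them, which took Fmod to -0.53 (edgeR adjusted p = 0.167) and Ogn to -0.69 (edgeR adjusted p = 0.164). Dcn (log2 change -0.023, SE 0.251) and Lum (-0.095, SE 0.254) were not called.

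In P-Apex1KO 0 of 10 members changed from 10- to 14-dpf in edgeR, beside 0.259% of genes in either direction. DESeq2 called 0 as well, and 2811 genes and 2 members were at an unadjusted p under 0.05. Chad had a log2 change of 0.26 (SE 0.31) and Epyc of -0.60 (SE 0.592) there. These changes lean on the sex term, as P-Apex1KO held 1 female and 2 males at 10-dpf and 3 females at 14-dpf. Over 6 other settings with all mice the Epyc change ran from -1.53 to -0.49 and was not called. Its genotype difference ran from 1.28 to 2.83. The difference between the genotypes' changes called 0 of 10 with edgeR, beside 0.436% of genes, with 2577 genes and 4 members at an unadjusted p under 0.05. DESeq2 called 2 members, and more genes in all, 465 against 86 in edgeR. Chad came closest (difference 1.98, SE 0.436, edgeR adjusted p = 0.0935), and Epyc had 2.61 (SE 0.862, edgeR adjusted p = 0.238). The DESeq2 calls were of these members.

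At 14-dpf Epyc and Chad were higher in P-Apex1KO in the model with sex, the other direction from 6-dpf. Prelp, which was not called at 6-dpf, was higher too, and Fmod was not called. Epyc stood at 0.81, 3.86, 3.78 and 3.30 CPM in WT and at 18.8, 13.1 and 13.4 CPM in P-Apex1KO. The groups did not overlap, and WT replicate 1 was the lowest mouse. With sex in the model the log2 fold change was 4.21 (SE 0.361, edgeR adjusted p = 0.000928). Chad stood at 45.6, 103, 93.7 and 109 CPM in WT and at 194, 122 and 143 CPM in P-Apex1KO, also without overlap (1.75, SE 0.262, edgeR adjusted p = 0.0072). Prelp stood at 58.1, 82.9, 85.8 and 60.8 CPM in WT and at 135, 143 and 192 CPM in P-Apex1KO, again apart (1.44, SE 0.271, edgeR adjusted p = 0.0167). So 3 of 10 members were higher, beside 4.28% of 20228 genes, and 0 lower, beside 7.04%. Without overlap 3 were higher, beside 19.9% of genes, and 0 lower, beside 22.0%. The members' median was 0.65, beside 0.04 over all genes.

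These 14-dpf values rest on how sex is handled, because the 3 P-Apex1KO mice were female and WT replicate 1 was the only WT female. Without the sex term the log2 fold change was 2.37 for Epyc (SE 0.422, edgeR adjusted p = 0.00431), 1.14 for Prelp (SE 0.178, edgeR adjusted p = 0.00212) and 0.82 for Chad (SE 0.3, edgeR adjusted p = 0.069). Without that term and that mouse it was 2.07 for Epyc (SE 0.19, edgeR adjusted p = 0.00048), 1.06 for Prelp (SE 0.174, edgeR adjusted p = 0.00449) and 0.61 for Chad (SE 0.171, edgeR adjusted p = 0.0308), a comparison of 3 female with 3 male mice in which sex and genotype cannot be told apart. With all 30 samples in one model, sex included, Epyc was at 2.76 (edgeR adjusted p = 0.00104), Prelp at 1.22 (edgeR adjusted p = 0.0128) and Chad at 0.54 (edgeR adjusted p = 0.425). WT replicate 1 was also the lowest in chondrocyte markers, with a mean log2(CPM + 1) of 5.45 against 7.15 to 7.71 in the other WT mice and 7.72 to 8.14 in P-Apex1KO. Without P-Apex1KO replicate 2, the lowest P-Apex1KO mouse for every member but Prelp, 6 members were called higher, Aspn, Fmod and Ogn in addition. Genes called higher numbered 1649 in all without that mouse, 3467 with no sex term and 2619 with all 30 samples in one model, against 865.

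The other 7 members were not called at 14-dpf in the model with genotype and sex, though some were with other mice or models. Lum was at 1090, 1220, 1170 and 1130 CPM in WT and at 1270, 549 and 1300 CPM in P-Apex1KO (-0.07, SE 0.429, edgeR adjusted p = 0.936). The P-Apex1KO mice lay on both sides of WT. Aspn was at 237, 302, 384 and 240 CPM in WT and at 547, 243 and 723 CPM in P-Apex1KO (1.09, SE 0.572, edgeR adjusted p = 0.268), and it was called without P-Apex1KO replicate 2 (1.42, edgeR adjusted p = 0.0483). Ogn was at 232, 260, 273 and 226 CPM in WT and at 438, 242 and 522 CPM in P-Apex1KO (0.79, SE 0.389, edgeR adjusted p = 0.24). Replicate 2 lay within the WT range and the other P-Apex1KO mice above it. Ogn was called without that mouse (1.05, edgeR adjusted p = 0.00254), with no sex term (0.71, edgeR adjusted p = 0.0436) and with all 30 samples in one model (0.86, edgeR adjusted p = 0.0304). Bgn, at 2420, 2570, 2340 and 2370 CPM in WT, was at 2190, 1440 and 2380 CPM in P-Apex1KO (-0.27, SE 0.257, edgeR adjusted p = 0.534). Omd, which had been lower at 6-dpf, ran from 101 to 156 CPM in WT and from 76.8 to 146 CPM in P-Apex1KO (-0.23, SE 0.364, edgeR adjusted p = 0.728).

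In the genes around the family at 14-dpf, collagens were split: 5 of 18 were lower, led by the bone collagen genes Col1a1 (-2.55) and Col1a2 (-2.35), and 4 higher, led by the cartilage genes Col9a3 (3.48) and Col9a2 (3.29), with a median of -0.01. Of the chondroitin and dermatan sulfate genes 4 of 25 were lower, led by Chst13 (-1.73) and Ust (-1.33), and 1 was higher, Xylt1 (1.12). Keratan sulfate genes were lower in 2 of 13, Chst5 (-2.17) and B3gnt7 (-1.36), and proteases in 3 of 11, led by Bmp1 (-1.59) and Mmp14 (-1.24). Ligands and receptors were lower in 7 of 25, led by Ccn4 (-1.41) and Tgfbr1 (-1.31), and higher in 5, led by Erbb4 (4.24) and C1qa (1.29). Of 7 relatives 2 were lower, Podnl1 (-1.68) and Tsku (-1.63), and 2 higher, Chadl (2.26) and Kera (1.66). Chondrocyte markers were higher in 9 of 10 and lower in 1 (2440 to 6870 CPM summed in WT, 4970 to 5440 CPM in P-Apex1KO). Their sum was 2440 CPM in WT replicate 1, the only WT female, and 5240 to 6870 CPM in the other WT mice. All calls and log2 fold changes of this paragraph are from the model with genotype and sex, and none is given without the sex term. Bone markers were lower in 6 of 10 (69800 to 95300 and 17900 to 19200 CPM). Endothelial markers were lower in 4 of 6 (803 to 882 and 540 to 612 CPM). Tendon markers were higher in 1 of 6 (101 to 189 and 250 to 526 CPM), leukocyte markers were higher in 2 and lower in 1 of 10 (1100 to 1260 and 1060 to 1600 CPM), hypertrophic chondrocyte markers were higher in 2 and lower in 1 of 5 (4060 to 8520 and 3610 to 8630 CPM), and 1 of 9 fibroblast markers was lower. Of 12 muscle and 5 fat markers 0 were called. By estimate 12 of 12 muscle markers were higher (median 0.95, 1480 to 5290 and 3630 to 13500 CPM). So were 7 of 9 fibroblast markers (median 1.07, 884 to 1080 and 808 to 1380 CPM). Per 1000 normalised reads of Col2a1, Epyc had a median of 1.51 in WT (1.14 to 1.56) and 8.66 in P-Apex1KO (5.49 to 11.3), which do not overlap, and Chad of 45.1 (28.3 to 87.3) and 92.3 (51.2 to 116), which do. Their part in the members' differences was not tested.

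Over the 30 mice the members rose and fell together to different degrees. Pearson r of log2 CPM between pairs ran from 0.31 (Prelp and Omd) to 0.96 (Aspn and Ogn), with a median of 0.75 over 45 pairs. These correlations are across mice that share time points, libraries and depth, and are given as description. After removal of the group means the range was 0.21 (Ogn and Chad) to 0.94 (Aspn and Ogn). Omd and Chad correlated at 0.94 over all mice and at 0.54 after removal of the group means. Dcn and Lum kept 0.93 and 0.89. The genes nearest to each member over the 30 mice, of 13796 searched, included other members for Dcn (Lum, 0.929), Aspn (Ogn, 0.959) and Ogn (Aspn, 0.959, after Itm2a, 0.965). The genes nearest to Epyc were Ncmap (0.965), Sox5 (0.962), a chondrocyte transcription factor, and Adgrg2 (0.96). Nearest to Chad were Frzb (0.968), a secreted Wnt antagonist of cartilage, Susd5 (0.968) and Wnk4 (0.966). For Omd they were Slc8a3 (0.981), Itga10 (0.976), the chondrocyte collagen receptor subunit, and Smim14 (0.973). Prelp had Mfap4 (0.939), Cpxm2 (0.934) and C1qtnf3 (0.926), and Fmod had Fzd9 (0.968), Fgfrl1 (0.961) and Col8a2 (0.957). Bgn had Sh3d19 (0.958), Mras (0.957) and Ston1 (0.953), and Lum had Epha3 (0.931), Edil3 (0.931) and Fat4 (0.929). Dcn had, after Lum, Plxdc2 (0.914) and Ecm2 (0.904), Aspn had Matn2 (0.95) and Camk4 (0.941), and Ogn had Cpxm2 (0.956). After removal of the group means, r with these nearest genes ran from 0.45 (Omd and Smim14) to 0.94 (Ogn with Itm2a and with Aspn).

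**Figure D5:**
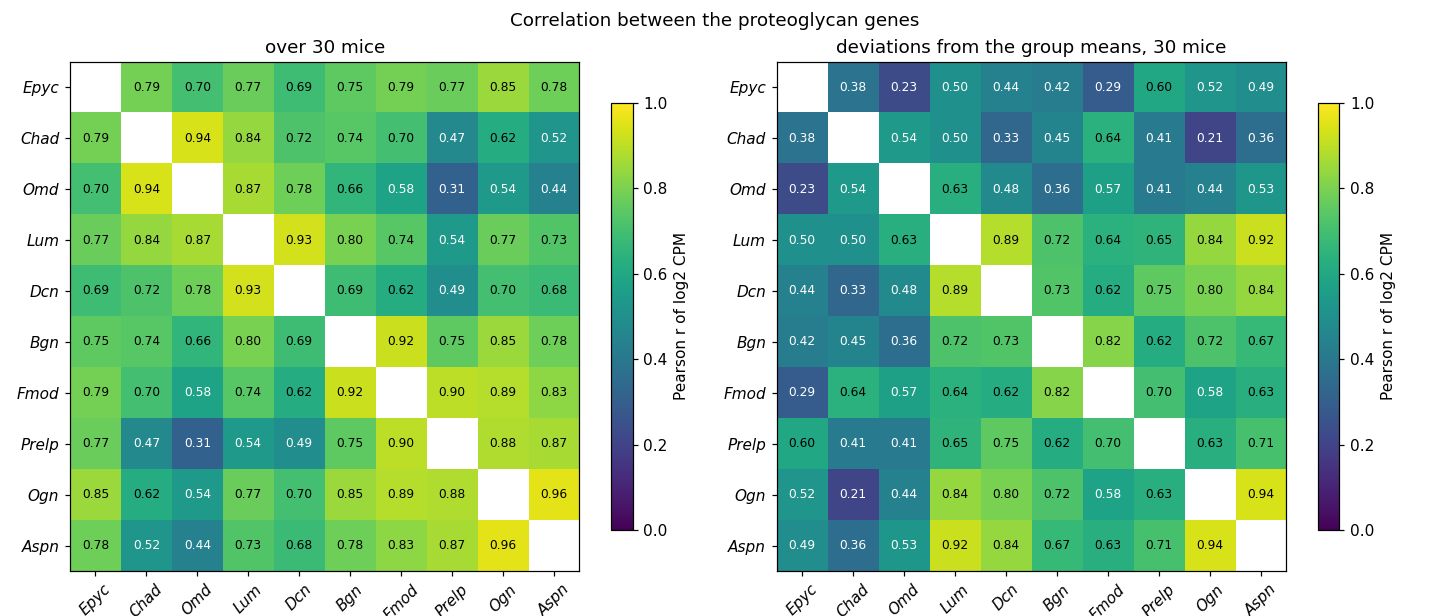
Each cell gives Pearson r of log2 CPM between 2 of the 10 genes, over 30 mice (left) and over the same mice after subtraction of the group means (right). Aspn with Ogn is the highest pair in both, and Omd with Chad goes from 0.94 to 0.54.

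Most members lie in 3 gene clusters (GRCm39). Dcn, Lum, Kera and Epyc lie on chromosome 10 within 203 kb, Ecm2, Aspn, Omd and Ogn on chromosome 13 within 122.2 kb, and Optc, Prelp and Fmod on chromosome 1 within 151.1 kb. Chad, on chromosome 11, and Bgn, on chromosome X, lie alone. Calls were shared by some neighbours and not by others. At 6-dpf Epyc was called lower and Kera higher (0.72, SE 0.133, edgeR adjusted p = 0.0104), while Dcn and Lum were not called. On chromosome 13 Omd was called lower at 6-dpf and its neighbours Aspn, Ogn and Ecm2 (-0.36, SE 0.143, edgeR adjusted p = 0.143) were not. At 14-dpf Epyc and Kera were both called higher in the model with genotype and sex (Kera 1.66, SE 0.318, edgeR adjusted p = 0.0167). At that time Prelp was called higher and its neighbour Fmod was not (0.51, SE 0.326, edgeR adjusted p = 0.355). The test of a difference between neighbours was not made.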

How the data were processed

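RNA from 30 mouse fracture calluses was sequenced as stranded total RNA depleted of rRNA and globin. Per the labels, reads were converted with bcl2fastq 2.20, aligned with STAR 2.7.0d to mm39 and counted per gene with featureCounts, and the authors deposited raw counts, one column per mouse. Genes were placed with GENCODE M39 (GRCm39). Each time point was fitted alone with edgeR 4.0.16 (TMM, filterByExpr, quasi-likelihood F test, genotype and sex, Benjamini-Hochberg over all genes, threshold 0.05), after the sex-adjusted design of the study. Models of 2 time points gave the changes from 3- to 6-dpf and from 10- to 14-dpf. Times 6 and 10 were not tested against each other, because library names follow a different scheme at 3- and 6-dpf than at 10- and 14-dpf. Levels and shares set across them are description. A difference between these sets of libraries cannot be told apart from time. SE is the log2 fold change over the square root of F. DESeq2 1.42.0 was an alternative, in R 4.3.3. Fits were tested on simulated data. Low counts limit Epyc most. Replicates are mice. The members, gene lists and motifs were chosen with earlier results of these data known. The text names every member, its 3 nearest genes (Pearson r of log2 CPM, prior count 2, over protein-coding genes of at least 1 CPM on average), from each gene list up to 2 called genes a direction with the largest changes, and Apex1; Ecm2 was named as a neighbour after its values were seen. Levels use Python 3.11.15.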

Additional observations from a re-analysis of the deposited data

Results flagged for a closer look

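At 10-dpf, Fmod at 1060 CPM and Prelp at 378 CPM in WT replicate 3 lay further from the other WT mice than Dixon's critical value allows. These were the 2 values so marked among 50 groups of samples examined, and chance marks about 1 in 20 groups.

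Epyc and Chad separated the genotypes in opposite directions at different times. The log2 fold change of Epyc was -1.65 at 6-dpf and 4.21 at 14-dpf, with every P-Apex1KO mouse below every WT mouse at 6-dpf and above at 14-dpf. The log2 fold change of Chad was -2.48 at 6-dpf, -0.82 at 10-dpf and 1.75 at 14-dpf, with the genotypes apart at each of these times. The difference between 6- and 14-dpf was not tested, and that of Chad between 10- and 14-dpf had an edgeR adjusted p of 0.0935. The 14-dpf values depend on the sex term. Without it Epyc was at 2.37, and Chad was at 0.82 and not called (edgeR adjusted p = 0.069). With all 30 samples in one model Chad was not called either (0.54, edgeR adjusted p = 0.425). Such separations are common. Of all genes, 10.9% were lower without overlap at 6-dpf, 10.1% lower at 10-dpf and 19.9% higher at 14-dpf.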

How the results depend on the processing

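In all, 1880 alternatives were computed for 100 values, of which 72 changed sign, in 26 values, and none of these was called in either setting. Members called at 6-dpf numbered 3, 6 with DESeq2, 1 with no filter on low counts and 2 to 4 when 1 mouse was left out. At 10-dpf 1 was called, 0 with no filter or with all 30 samples in one model, and 0 to 2 with a mouse left out. At 14-dpf 3 were called, and 3 to 6 with a mouse left out. With no sex term and with all 30 samples the count was also 3, but Ogn took the place of Chad. Far more genes were called higher in these 2 fits, 3467 with no sex term and 2619 with all 30 samples, against 865. The genotype difference changed from 3- to 6-dpf for 0 members, 2 with DESeq2, 1 with at least 10 counts in every sample and 0 to 2 with a mouse left out, and from 10- to 14-dpf for 0, 2 with DESeq2 and 0 to 1. From 10- to 14-dpf in WT 5 changed, 3 with no sex term, 3 with no filter, and 3 to 6 with a mouse left out. From 3- to 6-dpf the counts with a mouse left out were 9 to 10 in WT and 7 to 10 in P-Apex1KO, where 8 were called with no filter. In WT, Dcn was not called with no filter or with library size alone.

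Same-numbered mice were not paired: their deviations correlated at -0.25 to 0.39 over 13 pairs, and 4 of 13 P-Apex1KO mice correlated best with their own number. A replicate block in place of sex called 0 members at 3-dpf, 2 at 6-dpf, 1 at 10-dpf and 1 at 14-dpf; Epyc was not called at 6-dpf (edgeR adjusted p = 0.112) or 14-dpf (0.0751), nor Chad at 14-dpf (0.967, edgeR adjusted p = 0.218). The model at 14-dpf with sex and without WT replicate 1 could not be fitted. The value without the sex term and that mouse was chosen after seeing the data.

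Changes of sign, for which the cause was not tested, were as follows. With no sex term, Bgn was 0.007 at 10-dpf and Dcn 0.141 at 14-dpf, the differences from 10- to 14-dpf were -0.219 for Dcn, -0.099 for Fmod and -0.159 for Omd, and the changes from 10- to 14-dpf in P-Apex1KO were -0.227 for Dcn, -0.653 for Aspn and -0.486 for Ogn. With library size alone, which moved the median of all genes to 0.2 at 6-dpf and 0.312 at 14-dpf, Bgn was 0.032 at 10-dpf, Dcn, Lum and Omd were 0.173, 0.191 and 0.042 at 14-dpf, Ogn was 0.044 for the 3- to 6-dpf difference, and Bgn and Lum were 0.037 and 0.07 for the 10- to 14-dpf difference. Dcn at 14-dpf was 0.048 with the replicate block, 0.226 with no sex term and without the WT female and 0.197 with all 30 samples. With library size alone, 814 of 3594 called genes were lower at 6-dpf, against 1137 of 2212 with TMM, and 766 of 2644 at 14-dpf, against 1424 of 2289.

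With a mouse left out, values at 3-dpf ran from -0.339 to 0.095 for Bgn, -0.161 to 0.99 for Chad, -0.21 to 0.358 for Fmod, -0.405 to 0.103 for Ogn, -0.255 to 0.166 for Omd and -0.255 to 0.225 for Prelp. At 6-dpf Dcn ran from -0.07 to 0.255. At 10-dpf Bgn ran from -0.203 to 0.066, Ogn from -0.049 to 0.355 and Omd from -0.369 to 0.032, and at 14-dpf Dcn from -0.288 to 0.137 and Lum from -0.26 to 0.237. The 3- to 6-dpf difference of Ogn ran from -0.335 to 0.022. The 10- to 14-dpf differences ran from -0.311 to 0.103 for Bgn, -0.353 to 0.645 for Dcn, -0.385 to 0.515 for Fmod, -0.381 to 0.369 for Lum and -0.181 to 0.429 for Omd. The 10- to 14-dpf changes ran in WT from -0.378 to 0.265 for Dcn and -0.36 to 0.113 for Lum, and in P-Apex1KO from -0.229 to 0.459 for Aspn, -0.153 to 0.277 for Dcn, -0.354 to 0.15 for Lum, -0.264 to 0.318 for Ogn and -0.528 to 0.022 for Prelp.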
